A study of Mus musculus with 9 samples.

Results

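The perineuronal net, a lattice of proteins and sugar chains, wraps the cell body and proximal dendrites of many parvalbumin interneurons (PV INs). The 10 genes described here make its matrix or bind it. They were taken by name, not by their values: the lecticans Acan, Bcan, Ncan and Vcan, the link proteins Hapln1 and Hapln4, the tenascins Tnr and Tnc, the hyaluronan synthase Has3 and the receptor Ptprz1. All 10 had an identifier among the 37620 in the count files, and all 10 passed the filter on low counts, which kept 15069 genes.

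In a net, hyaluronan synthases spin a long sugar chain out of the cell membrane. Lecticans are core proteins that carry chondroitin sulfate chains and bind hyaluronan at one end, and a link protein locks that bond in place. Tenascins hold the other ends of the lecticans together. PV INs are known to make aggrecan (Acan) and link proteins themselves. Astrocytes and oligodendrocyte precursors are known sources, though not necessarily the only ones, of brevican (Bcan), neurocan (Ncan), versican (Vcan), tenascin-C (Tnc) and Ptprz1. The bulk samples here do not tell which cells each RNA came from. Nets close in around PV INs late in development and are known for limiting their plasticity.

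Ribosome-associated RNA was pulled down with anti-HA beads from CA3/CA2 tissue of PV-Cre:Rpl22HA mice, in which Cre made in parvalbumin cells puts an HA tag on the ribosomal protein Rpl22. The mice received a lentivirus in the dentate gyrus (DG), either with a non-targeting shRNA (shNT, 5 samples) or with an shRNA against Ablim3 (shRNA, 4 samples), and tissue was taken 2 weeks later. Both groups carried the same alleles and were injected at 2 months of age, and every sample pooled 6 mice, male and female. Ablim3 was targeted in DG and the RNA was pulled down from CA3/CA2 tissue, so its count in these samples checks no label.

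Between 18281719 and 34578837 reads were counted on genes per sample. Levels are CPM (counts scaled to library size) after TMM scaling in edgeR. The 13 PV IN markers had a summed level of 9689.5 to 14882 CPM in shNT and 4659 to 11273 CPM in shRNA. Their log2 fold change was negative for 13 of 13, against 42.1% of all genes tested, with a median of -0.38. Of these, 0 passed the test, which 0.0133% of all genes passed as lower. Without shRNA replicate 4 again 13 of 13 were negative, with a median of -0.20. Markers of other cell types were also present. The 14 astrocyte markers summed to 1265 to 1826 CPM in shNT and 1711 to 6718 CPM in shRNA, the 10 markers of oligodendrocyte precursors to 84.2 to 121 CPM and 130 to 167 CPM, and no marker of either list was at 0 in all samples. In shRNA replicate 4 the astrocyte sum was 3.62-fold the mean of the other shRNA samples, the endothelial sum 6.99-fold and the PV IN sum 0.456-fold, and reads outside exons reached 27.2%. Values without this sample are therefore given beside the results it touches. It was also the only shRNA sample among the 3 whose names begin YTa32. The other 6 names begin YTa31, and what the sets stand for is not stated in the sources used here.

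Per kilobase of annotated exon, so that genes can be compared, the net genes differed widely in shNT. Hapln4, a link protein found at synapses on nets, had the highest level per length, 80.9 to 141 CPM per kb. By its mean over the samples of both groups it stood at percentile 96.5 of all genes tested. Bcan came next with 40.6 to 47.5 CPM per kb, and Hapln1 followed with 9.16 to 15.6 and Ncan with 6.35 to 8.62. The ranges of these neighbours did not meet. Ptprz1 (3.00 to 6.18 CPM per kb) and Tnr (2.31 to 7.33) overlapped each other. Acan, the lectican most often used to mark nets, was far lower at 0.643 to 1.08 CPM per kb, and at percentile 19.2 by its mean over both groups. Tnc, Vcan and Has3 lay below it, at 0.163 to 0.346, 0.102 to 0.419 and 0.047 to 0.211 CPM per kb, and each overlapped its neighbour. In shRNA, Hapln4 (42.4 to 123) overlapped Bcan (44.1 to 122), because in replicate 4 Bcan ranked first and Hapln4 second, whereas Hapln4 ranked first in the other 8 samples. The annotated models of Tnc and Tnr begin far downstream of their RefSeq starts, so exons may be missing from both, which bears on their levels and on their length.

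**Figure D1:**
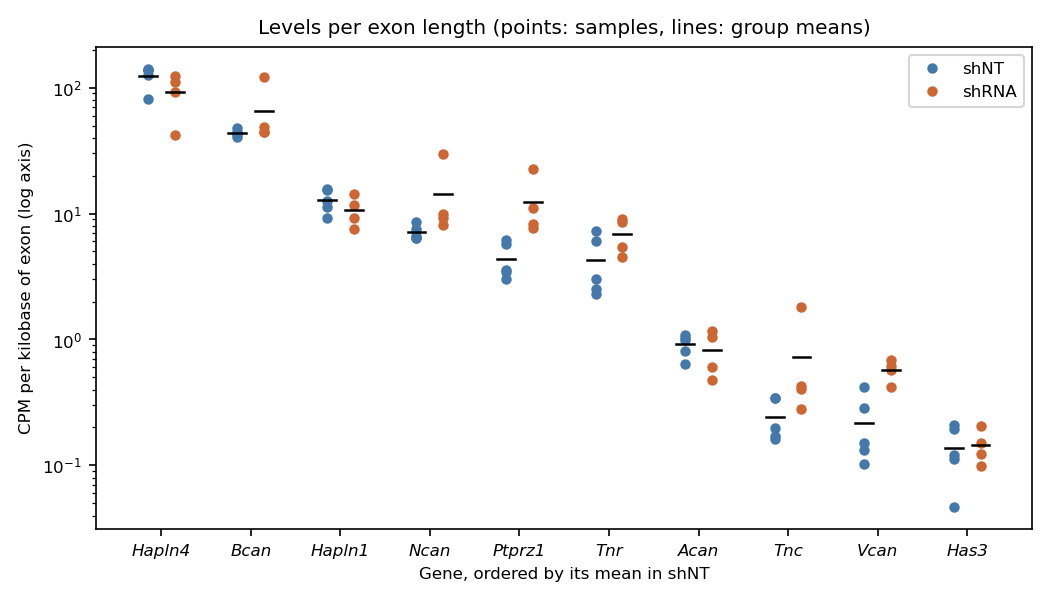
Level per exon length (CPM per kilobase of exon, log axis) of each net gene in each sample, with shNT in blue and shRNA in orange, lines at the group means and genes ordered by their mean in shNT. Hapln4 and Bcan sit at the top in both groups, and Acan sits below Ptprz1 and Tnr.

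Within families, 1 member dominated. Of the summed level per length of the 4 lecticans, Bcan made up 84.2% ± 1.80 in shNT and 80.9% ± 0.944 in shRNA (SD, n = 5 and 4). Ncan made up 13.6% ± 1.89 and 17.0% ± 1.85, Acan 1.76% ± 0.364 and 1.33% ± 0.798, and Vcan 0.417% ± 0.251 and 0.826% ± 0.284. Hapln4 made up 90.6% ± 1.37 and 89.0% ± 2.73 of the sum of Hapln1 and Hapln4.

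The comparison of shRNA with shNT asks whether the net genes of PV INs, or RNA carried along from cells around them, shift after the DG manipulation. Of the 10 genes, 7 had a positive and 3 a negative log2 fold change, with a median of 0.63. Among all genes tested the median was 0.11, with 57.9% positive and 42.1% negative. Without shRNA replicate 4 the medians were 0.25 and 0.03. No net gene passed an FDR under 0.05 with a change of at least 1.5-fold in edgeR's quasi-likelihood test, which called 1.74% of genes tested as higher and 0.0133% as lower. Ncan, Vcan, Tnc and Ptprz1 were higher at an unadjusted p under 0.05, as were 20.7% of all genes, and their FDR lay between 0.0502 and 0.0806. EdgeR's likelihood ratio test and DESeq2 each called these 4 genes as higher, against 11.2% and 10.1% of all genes. They called no net gene as lower, against 3.6% and 5.6% of all genes. Limma voom called 3 as higher, which were Vcan, Tnr and Ptprz1, and 0 as lower, against 15.3% and 4.1% of all genes. In bulk samples, fewer cells of a type and less RNA per cell cannot be told apart.

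**Figure D2:**
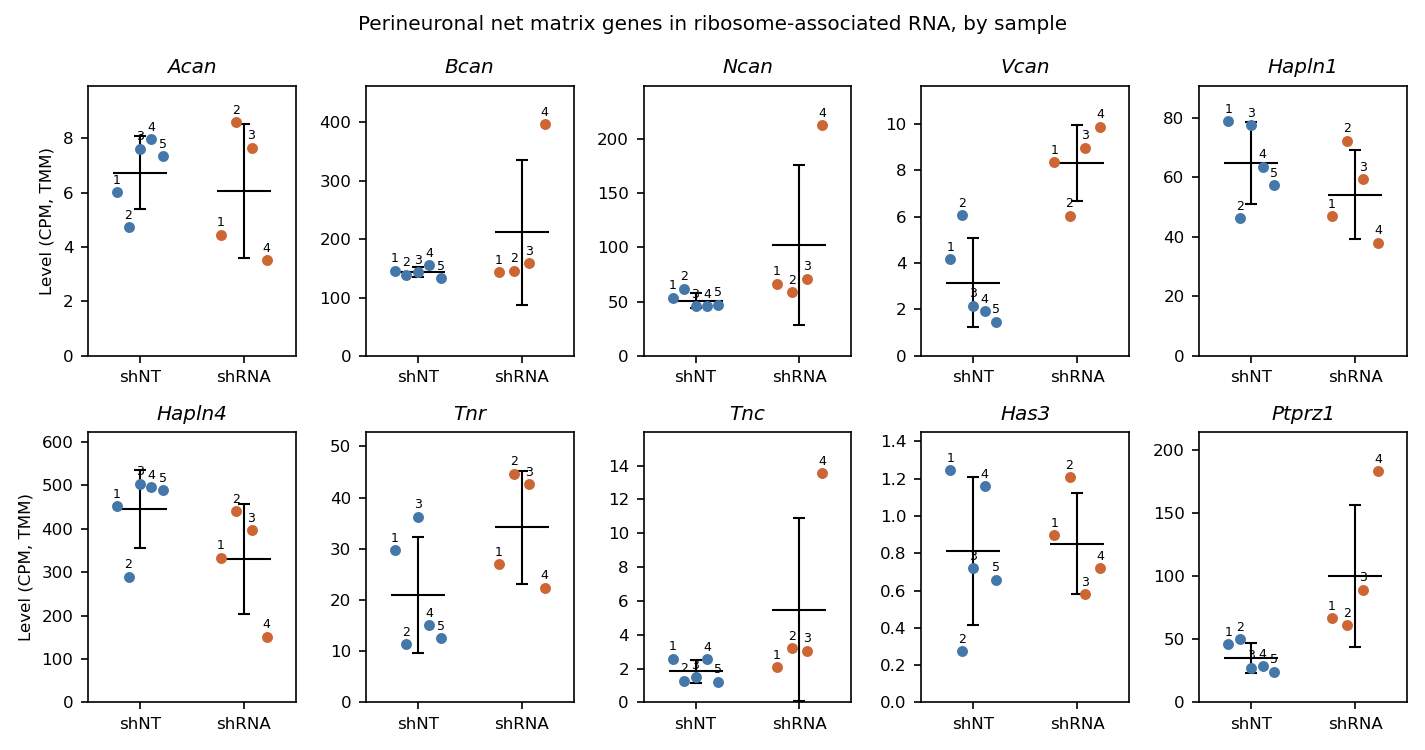
Level of each net gene (CPM, TMM-scaled, axes from 0) in each shNT (blue) and shRNA (orange) sample, numbered by replicate, with the group mean and SD. Ptprz1 is the gene whose groups do not overlap, and shRNA replicate 4 lies far above its group for Bcan, Ncan, Tnc and Ptprz1.

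Among the lecticans, Acan (aggrecan, ENSMUSG00000030607) was measured at 6.01, 4.73, 7.61, 7.97 and 7.34 CPM in shNT replicates 1 to 5 and at 4.45, 8.60, 7.65 and 3.52 CPM in shRNA replicates 1 to 4. The shRNA group held both the highest and the lowest sample, and the groups overlapped throughout. Acan had a log2 fold change of -0.15 (SE 0.29, 95% interval -0.78 to 0.47, FDR = 0.720 in edgeR's quasi-likelihood test). The sign turned without shRNA replicate 4 (0.02) and within the 6 YTa31 samples (0.14).

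Bcan (brevican, ENSMUSG00000004892), which caps synapses on nets, stood at 146, 139, 143, 155 and 133 CPM in shNT and at 144, 146, 158 and 397 CPM in shRNA. The samples lay within a narrow band apart from shRNA replicate 4, which lay far above it. The SD was 8.28 CPM around a mean of 143 in shNT and 124 CPM around a mean of 211 in shRNA. With all 9 samples the log2 fold change was 0.56 (SE 0.29, edgeR FDR = 0.184), and without shRNA replicate 4 it was 0.04 (edgeR FDR = 0.818). That sample held 2.66-fold the Bcan level of the other shRNA samples, beside the 3.62-fold astrocyte marker sum, and the part of astrocyte RNA in the difference was not tested.

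Ncan (neurocan, ENSMUSG00000002341), a lectican of the loose matrix, was at 53.8, 62.1, 45.7, 45.9 and 47.3 CPM in shNT and at 66.6, 58.6, 71.2 and 213 CPM in shRNA. All shRNA samples but replicate 2 were above every shNT sample, and replicate 4 was 3.25-fold the mean of the other 3. The log2 fold change was 1.01 (SE 0.34, 95% interval 0.25 to 1.76, edgeR FDR = 0.0806), and without replicate 4 it was 0.34 (edgeR FDR = 0.195).

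Vcan (versican, ENSMUSG00000021614), a lectican known from precursor cells and white matter, was scarce at 4.16, 6.06, 2.16, 1.92 and 1.47 CPM in shNT. In shRNA it stood at 8.34, 6.04, 8.97 and 9.88 CPM. The groups met at a single point, where shNT replicate 2 was just above shRNA replicate 2. The log2 fold change was 1.40 (SE 0.39, 95% interval 0.55 to 2.25, edgeR FDR = 0.0630). Unlike Bcan and Ncan, Vcan kept a similar size without shRNA replicate 4, with a log2 fold change of 1.27 (edgeR FDR = 0.138), and the mean of the other 3 shRNA samples was 2.47-fold the shNT mean. Within the 6 YTa31 samples the log2 fold change was 0.88. The summed oligodendrocyte precursor markers also did not overlap between the groups, 8 of those 10 markers had a positive log2 fold change against 57.9% of all genes, and 4 (Pdgfra, Olig2, Gpr17 and Neu4) were called as higher by edgeR against 1.74%. Again 8 were positive without shRNA replicate 4, and 0 were called. Higher levels were not particular to this list. Summed CA3 and CA2 pyramidal markers did not overlap either, at 615 to 1483 CPM in shNT and 1552 to 1950 CPM in shRNA. Of 10 pyramidal markers 9 were positive and 1 was called, with or without shRNA replicate 4. Of the oligodendrocyte markers 10 of 10 were positive, and of the DG granule cell markers 9 of 10, with 0 called. The part of any of these cell types in the Vcan difference was not tested.

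Hapln1 (ENSMUSG00000021613), the link protein needed for compact nets, was at 78.9, 46.3, 77.5, 63.6 and 57.2 CPM in shNT and at 47.0, 72.3, 59.4 and 38.0 CPM in shRNA. The ranges overlapped widely. The shRNA and shNT groups differed by a log2 fold change of -0.26 (SE 0.21, 95% interval -0.72 to 0.21, edgeR FDR = 0.401). Without shRNA replicate 4, the lowest sample, it was -0.13 (edgeR FDR = 0.681).

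Hapln4 (ENSMUSG00000007594), a link protein that pairs with brevican, was at 453, 289, 503, 496 and 489 CPM in shNT and at 333, 441, 396 and 152 CPM in shRNA. No shRNA sample reached the level of the 4 higher shNT samples, and shNT replicate 2 was below 3 of the 4 shRNA samples. The log2 fold change was -0.43 (SE 0.29, 95% interval -1.07 to 0.20, edgeR FDR = 0.295). Without shRNA replicate 4 it was -0.20.

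Tnr (tenascin-R, ENSMUSG00000015829), which ties lecticans together in adult nets, was at 29.8, 11.4, 36.3, 15.0 and 12.5 CPM in shNT and at 27.1, 44.7, 42.6 and 22.4 CPM in shRNA. Within shNT, replicates 1 and 3 lay well above the other 3, and they overlapped the shRNA range. The log2 fold change was 0.70 (SE 0.36, 95% interval -0.09 to 1.49, FDR = 0.190 in edgeR's quasi-likelihood test), whereas limma voom with sample weights gave 1.11 and an FDR of 0.00591. Tnr was the gene of this set with a positive change for which shRNA replicate 4 was the lowest shRNA sample, and without it the log2 fold change was 0.86.

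Tnc (tenascin-C, ENSMUSG00000028364), the tenascin of development and of reactive glia, was low at 2.60, 1.29, 1.47, 2.57 and 1.22 CPM in shNT and at 2.09, 3.20, 3.06 and 13.6 CPM in shRNA. The last sample was 4.88-fold the mean of the other 3. The log2 fold change was 1.58 (SE 0.53, 95% interval 0.42 to 2.75, edgeR FDR = 0.0786), the largest of the 10 genes, and without shRNA replicate 4 it was 0.60 (edgeR FDR = 0.253).

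Has3 (ENSMUSG00000031910), the synthase of this set that makes hyaluronan, was low, with 6 to 35 counts per sample. It was at 1.24, 0.275, 0.720, 1.16 and 0.659 CPM in shNT and at 0.897, 1.21, 0.580 and 0.722 CPM in shRNA. The groups covered about the same range. For Has3 the log2 fold change was 0.08 with a wide 95% interval of -0.90 to 1.06 (edgeR FDR = 0.912).

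Ptprz1 (ENSMUSG00000068748), a receptor phosphatase whose shed ectodomain is the proteoglycan phosphacan and binds Tnr, was at 46.2, 49.8, 27.6, 28.7 and 24.2 CPM in shNT. In shRNA it was at 66.8, 61.4, 89.1 and 183 CPM, and the last sample was 2.52-fold the mean of the other shRNA samples. Every shRNA sample was above every shNT sample, which was the case for 1 of the 10 net genes and for 8.97% of all genes tested. No net gene had every shRNA sample below every shNT sample, against 6.68% of all genes tested. For Ptprz1 the log2 fold change was 1.503 (SE 0.34, 95% interval 0.76 to 2.24). The FDR in edgeR's quasi-likelihood test was 0.0502, above the threshold, and 3239 of the 15069 genes tested had an FDR from 0.05 to under 0.1. With edgeR's likelihood ratio test the FDR was 0.00101 and with DESeq2 it was 0.00113. Without shRNA replicate 4 the log2 fold change was 1.01 (edgeR FDR = 0.0903), and within the 6 YTa31 samples it was 0.78 (edgeR FDR = 0.430). Of the astrocyte markers 14 of 14 had a positive log2 fold change, against 57.9% of all genes, with a median of 1.39. Of these markers 0 were called, against 1.74% of all genes as higher. Leaving out shRNA replicate 4 gave 13 of 14 and a median of 0.43, and the astrocyte sum of the other 3 shRNA samples was 1.22-fold the shNT mean. The part of astrocytes and oligodendrocyte precursors in the Ptprz1 difference was not tested.

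**Figure D3:**
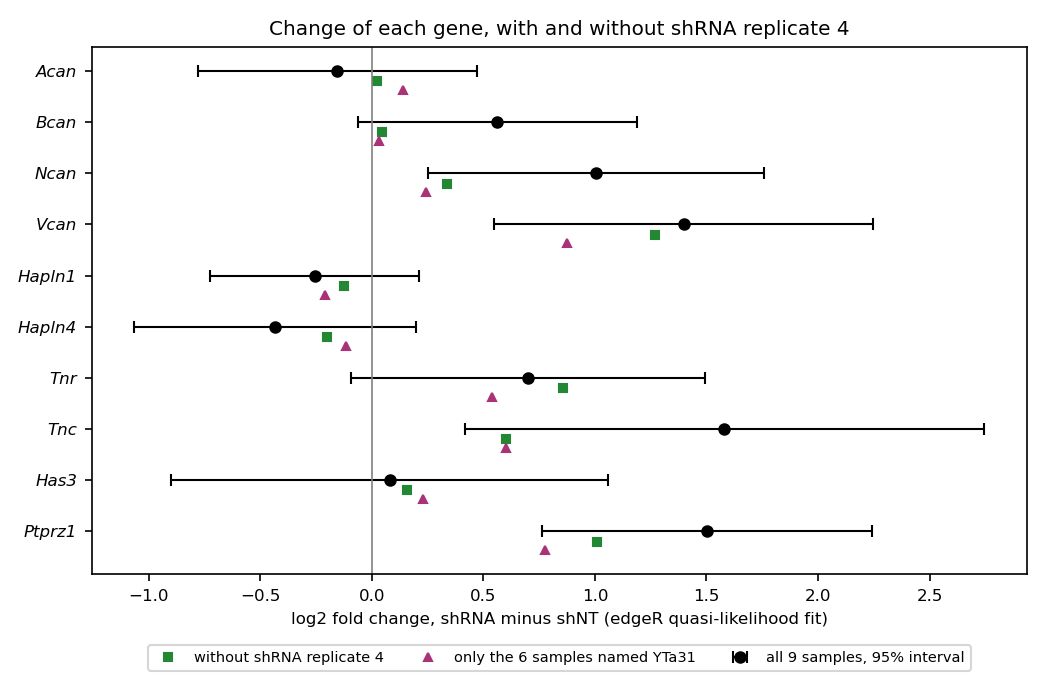
Log2 fold change of each net gene (shRNA minus shNT, edgeR quasi-likelihood fit), as black points with 95% intervals for all 9 samples, green squares without shRNA replicate 4 and purple triangles for the 6 samples named YTa31. Bcan is at 0.04 without replicate 4, whereas Vcan, Tnr and Ptprz1 stay at 0.86 or more.

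Across the 9 samples the net genes fell into sets with like patterns. Each gene was centred on its mean log2 CPM, and pairs were compared by the root mean square of their difference. The closest pairs were Acan and Hapln1 (0.24 log2 units), Acan and Hapln4 (0.25), Bcan and Ncan (0.26) and Hapln1 and Hapln4 (0.29). Hapln4 and Tnc were the farthest apart at 1.39. These distances share libraries and depth and are given as descriptions over 9 samples.

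Acan, Hapln1 and Hapln4 had the same 3 lowest samples, shNT replicate 2, shRNA replicate 1 and shRNA replicate 4. Those were also the 3 samples with the largest share of reads outside exons, 18.6%, 19.8% and 27.2% against 9.76% to 12.5% in the other 6. Of all genes tested, 10.9% had these 3 samples as their lowest. Averaged over the list, the 13 PV IN markers were also lowest in them, at -0.42, -0.42 and -1.33 log2 units from the shNT average, and the other samples were at -0.25 or higher. Nuclear-retained noncoding RNAs were highest in them, at 1.61, 1.63 and 2.29 log2 units. With that share as a covariate, the edgeR log2 fold changes were 0.27 for Acan, 0.07 for Hapln1 and 0.04 for Hapln4, so all 3 turned from negative to positive, and none of the 3 was called in either fit. The part of reads outside exons, of PV IN content or of nuclear RNA in these levels was not tested further.

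**Figure D4:**
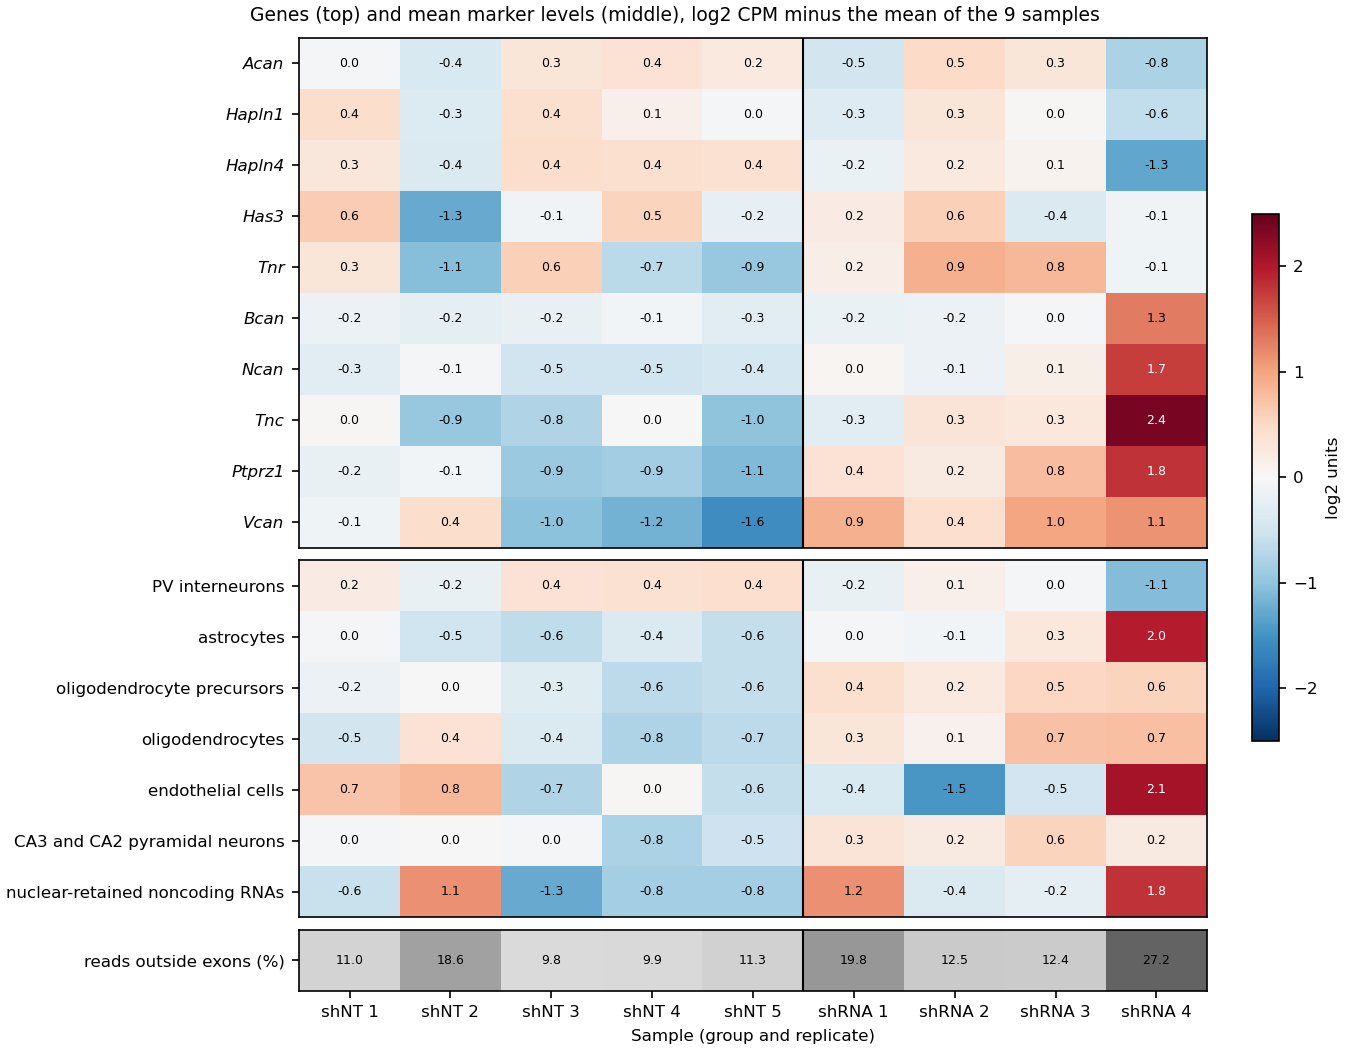
Log2 CPM of each net gene minus its mean over the 9 samples (top), the same for the mean of each marker list (middle), and the percentage of reads outside exons (bottom, grey), by sample with shNT left of the line. Acan, Hapln1 and Hapln4 are low in the samples with many reads outside exons. Bcan, Ncan, Tnc and Ptprz1 are high in shRNA replicate 4 together with the astrocyte and endothelial markers.

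Of the genes with a mean of at least 10 CPM, those with a pattern like that of Acan included Atp6v1h, Kbtbd5, Steap2 and Shmt1 (each 0.13 log2 units), against a median of 0.44 over 9495 genes. Atp6v1h encodes a subunit of the vacuolar proton pump. Those most like Bcan were Cnn3 (0.10), Fubp3 (0.11), Cav2 (0.12), Fam116b (0.13) and Tmem47 (0.13), against a median of 0.60. Cnn3 encodes an actin-binding calponin and Cav2 a caveolin.

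Ratios within a sample do not depend on how libraries are scaled. The log2 ratio of Acan to Pvalb, the gene of the calcium-binding protein that defines these cells, was -7.17 ± 0.52 in shNT and -6.46 ± 0.58 in shRNA, a difference of 0.71 (exact permutation p = 0.111). Pvalb itself was at 678, 1106, 743, 1089 and 1375 CPM in shNT and at 705, 552, 539 and 310.0 CPM in shRNA, with a log2 fold change of -0.92 (edgeR FDR = 0.0678). The ratio of Bcan to Acan differed by 0.63 (exact permutation p = 0.310), that of Hapln1 to Hapln4 by 0.24 (exact permutation p = 0.294) and that of Tnr to Tnc by -0.40 (exact permutation p = 0.698). Without shRNA replicate 4 the difference was 0.06 for Bcan to Acan, 0.06 for Hapln1 to Hapln4 and 0.35 for Tnr to Tnc. Adjusted over these 4 two-sided tests, the p values were 0.413 for the first 3 and 0.698 for the last, and the smallest p that the splits of these 9 samples allow is 0.00794.

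Each lectican gene lies next to a link protein gene in the mm9 genome, with no annotated gene between them. Acan (chr7:86198369-86259985) ends 40 bases from Hapln3, Ncan (chr8:72616984-72644772) lies 2.22 kb from Hapln4, Bcan (chr3:87791453-87804278) 21.4 kb from Hapln2, and Vcan (chr13:89794915-89882117) 43.5 kb from Hapln1. With all samples, neighbours differed in the sign of the log2 fold change in 3 of the 4 pairs, and these differences were not tested. The negative signs depended on the fit. Acan was at 0.02 without shRNA replicate 4. With the covariate for reads outside exons, Acan, Hapln1 and Hapln4 were at 0.27, 0.07 and 0.04, and Ncan and Vcan at 0.27 and 1.09. With all samples the values were as follows. Ncan had a log2 fold change of 1.01 and its neighbour Hapln4 one of -0.43, and Vcan had 1.40 and its neighbour Hapln1 -0.26. Bcan (0.56) and Hapln2 (1.23), a link protein of nodes of Ranvier, were both positive. Acan had -0.15 and Hapln3 0.39.

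Promoter sequences are shown for a member of each pattern, Acan and Hapln1 from the set that was low with many reads outside exons, Bcan and Ncan from the set that was high in shRNA replicate 4, and Ptprz1, whose groups did not overlap. All are RefSeq sequences (GRCm38.p6 table), written 5′ to 3′ on the gene's strand, from 250 bases before to 50 bases after the transcription start. Each matched the mm9 genome exactly at 1 place, and none held coding bases. Capitals mark matches on either strand to the letters GGGCGG, known as the GC box, to the CCAAT box or to the letters TATAAA of the TATA box.
Acan, chr7:86197862-86198161, plus strand: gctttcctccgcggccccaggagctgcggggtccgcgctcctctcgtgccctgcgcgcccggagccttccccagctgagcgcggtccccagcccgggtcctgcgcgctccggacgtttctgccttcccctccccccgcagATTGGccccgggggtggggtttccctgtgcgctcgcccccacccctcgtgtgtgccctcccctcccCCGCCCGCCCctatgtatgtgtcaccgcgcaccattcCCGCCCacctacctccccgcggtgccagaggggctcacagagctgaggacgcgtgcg
Hapln1, chr13:89679991-89680290, plus strand: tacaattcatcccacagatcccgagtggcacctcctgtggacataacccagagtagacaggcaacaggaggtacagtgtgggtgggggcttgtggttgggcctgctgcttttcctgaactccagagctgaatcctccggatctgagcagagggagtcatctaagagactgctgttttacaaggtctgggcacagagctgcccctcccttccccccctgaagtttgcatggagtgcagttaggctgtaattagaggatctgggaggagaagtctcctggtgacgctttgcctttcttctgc
Bcan, chr3:87804229-87804528, minus strand: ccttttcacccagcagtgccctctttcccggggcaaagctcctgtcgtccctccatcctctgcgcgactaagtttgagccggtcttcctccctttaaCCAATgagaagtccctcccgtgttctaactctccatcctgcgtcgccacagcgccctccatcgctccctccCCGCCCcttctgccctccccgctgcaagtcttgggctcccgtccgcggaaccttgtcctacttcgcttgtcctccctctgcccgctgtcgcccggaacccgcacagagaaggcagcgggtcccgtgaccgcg
Ncan, chr8:72644694-72644993, minus strand: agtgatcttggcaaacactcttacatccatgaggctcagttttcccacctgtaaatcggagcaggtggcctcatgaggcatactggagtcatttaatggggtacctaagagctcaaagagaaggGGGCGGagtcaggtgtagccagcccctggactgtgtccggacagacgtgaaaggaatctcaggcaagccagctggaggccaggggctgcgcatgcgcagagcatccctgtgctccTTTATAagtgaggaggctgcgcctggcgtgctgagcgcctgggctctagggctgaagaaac
Ptprz1, chr6:22825252-22825551, plus strand: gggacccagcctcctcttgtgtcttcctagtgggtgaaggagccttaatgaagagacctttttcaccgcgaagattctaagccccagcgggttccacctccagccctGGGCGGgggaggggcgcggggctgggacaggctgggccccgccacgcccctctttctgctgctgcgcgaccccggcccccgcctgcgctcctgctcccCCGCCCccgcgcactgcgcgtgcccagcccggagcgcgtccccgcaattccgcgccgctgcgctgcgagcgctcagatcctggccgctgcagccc

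The Acan window starts upstream of the annotated gene and holds none of its exon bases, whereas the windows of Hapln1, Bcan and Ptprz1 each hold 50 bases of noncoding first exon and that of Ncan holds 79. The Acan window was 74.0% G or C and held 3 GC boxes, of which 2 overlap, and 1 CCAAT box. That of Hapln1 was 54.3% G or C and held no match to the letters searched, and the median over 32851 promoter windows was 52.7%. Bcan held 1 GC box and 1 CCAAT box, Ncan 1 GC box and 1 TATA box, and Ptprz1 2 GC boxes. Of all windows, 35.7% held a GC box, 37.4% a CCAAT box and 13.6% a TATA box. The search also covered AACAAT (SOX), TAATCC (OTX2) and TGACTCA (AP-1), found in 10.7%, 7.06% and 5.2% of all windows, and no window of the 8 net genes in the table held one.

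Beyond the 10 genes, 82 other genes of the matrix and its turnover were listed, of which 75 were tested. Of these 75, 57 were positive, against 57.9% of all genes tested, and the median log2 fold change was 0.46, against 0.11. An unadjusted p under 0.05 was reached by 29 in the higher and 2 in the lower direction, against 20.7% and 13.4% of all genes. An FDR from 0.05 to under 0.1 was held by 23, against 3239 of the 15069 genes tested. Without shRNA replicate 4, 72 were tested, 54 were positive and the median was 0.27. Of all genes tested without that sample, 7700 of 14515 were positive, with a median of 0.03. With all samples a single gene was called as higher in edgeR's quasi-likelihood test, against 1.74% of all genes. Nrp1, a coreceptor for semaphorins, which nets bind, rose from 48.1 ± 7.33 to 81.0 ± 9.08 CPM (SD, n = 5 and 4), a log2 change of 0.75 (edgeR FDR = 0.0403). Each of shNT replicates 3 to 5, when left out, ended this call, and so did shRNA replicates 1, 3 and 4. In all of these fits 0 genes of these lists were called. The fit lacking shRNA replicate 4 still called 142 of all genes as higher and 0 as lower. The other fits that ended the call had 0 of all genes called in either direction, so the loss was not particular to Nrp1 there. DESeq2 called 17 of the 75 as higher and 1 as lower, against 10.1% and 5.6% of all genes.

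Among 9 genes tested for hyaluronan and other link proteins, the lowest p values at a mean of at least 1 CPM belonged to Cemip2, a membrane hyaluronidase, at 5.39 and 10.7 CPM on average in shNT and shRNA (edgeR FDR = 0.0651), Hapln2 and Cd44, a hyaluronan receptor. None of the 9 was called. The log2 fold changes of Cemip2, Hapln2 and Cd44 were 0.99, 1.23 and 0.81 with all samples and 0.69, 0.80 and 0.10 without shRNA replicate 4. Of 20 genes tested for chondroitin sulfate synthesis, 15 were positive with a median log2 fold change of 0.45, and none was called. Xylt1, which starts the chains, stood at 3.39 and 11.4 CPM on average (log2 fold change 1.75, edgeR FDR = 0.0544). The uronyl sulfotransferase gene Ust and the epimerase gene Dsel had log2 fold changes of 0.92 and 0.99. Without shRNA replicate 4, Xylt1 was at 1.31 (edgeR FDR = 0.127), Ust at 0.81 and Dsel at 0.78.

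Of 15 matrix proteases and inhibitors tested, 11 were positive with a median of 0.80, which was 0.16 without shRNA replicate 4. The lectican-cleaving proteases Adamts9 (2.45 and 6.88 CPM), Adamts4 (7.91 and 15.2 CPM) and Adamts1 (7.58 and 13.8 CPM) had edgeR FDR values of 0.0504, 0.0572 and 0.0717. Their log2 fold changes without shRNA replicate 4 were 1.10, 0.91 and 0.52. Adamts9 shares 14.4% of its exon bases with another gene. Of 17 net receptors and ligands tested, 14 were positive, and beside Nrp1 the pentraxin gene Nptx1 was at 84.8 and 175 CPM on average (edgeR FDR = 0.0594). The pentraxin receptor gene Nptxr (log2 fold change 1.00) shares 81.5% of its exon bases with another gene, so its count is uncertain. Of 14 other brain proteoglycans, 11 were positive, and none was called. Leaving out shRNA replicate 4 gave 9 positive and a median of 0.09, against 0.31 with it. The log2 fold changes of Agrn, Gpc5 and Sdc4 were 0.93, 1.33 and 1.21 with all samples and 0.52, 0.46 and 0.24 without shRNA replicate 4.

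**Figure D5:**
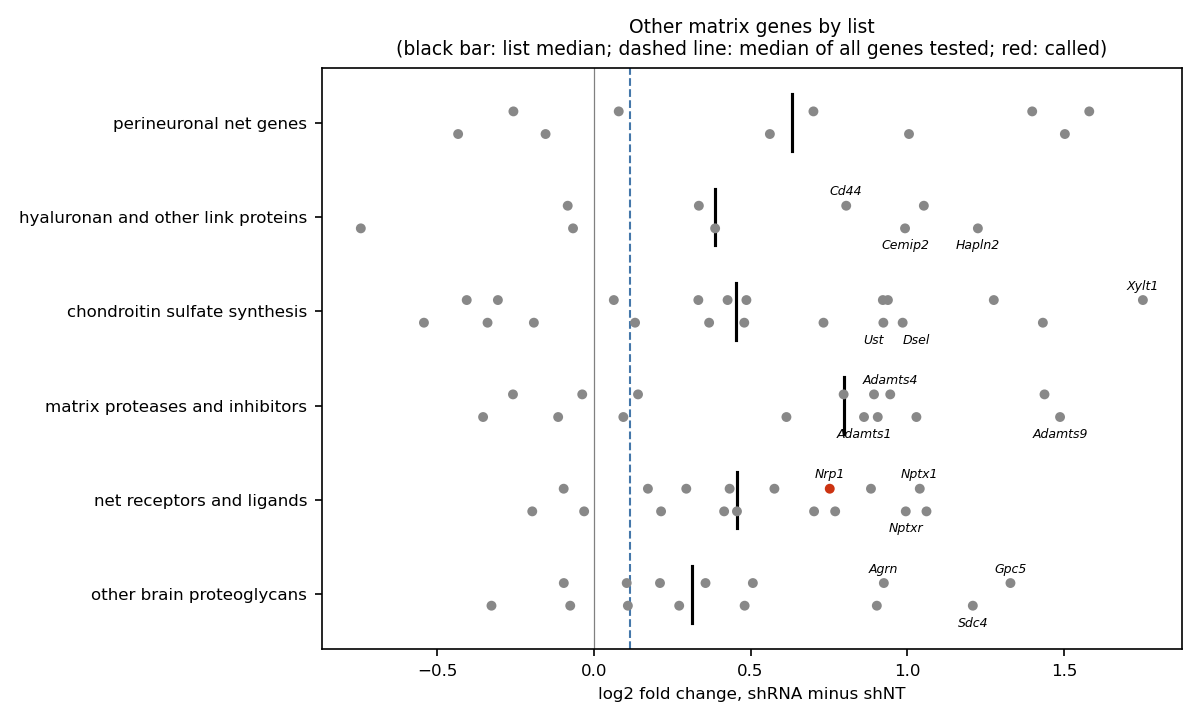
Log2 fold change (shRNA minus shNT, edgeR) of each gene tested in the net genes and in 5 other matrix lists, with black bars at list medians, a dashed line at the median of all genes tested and the called gene Nrp1 in red. Most points lie right of the dashed line, and the medians run from 0.31 to 0.80.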

How the data were processed

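The authors aligned 50-base reads (SMARTer v4 libraries) to the mm9 mouse genome with STAR. HTSeq 0.6.0, run unstranded, gave the number of unique alignments on each gene, and the authors deposited these raw counts per sample without normalization. The annotation they counted on is not given in the sources used here. Gene names, positions and exon lengths came from GENCODE vM1 on the same build, which named 37205 of 37620 identifiers. Without strand, reads of overlapping genes cannot be told apart.

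Samples were grouped by the names in the labels (shNT, 5; shRNA, 4). The tools were edgeR 4.0.16, DESeq2 1.42.0 and limma 3.58.1 under R 4.3.3. A gene was kept where any sample reached 1 CPM (15069 kept, 22551 removed). All were fitted together with edgeR's quasi-likelihood test, TMM scaling and condition as the only term. A gene was called at an FDR under 0.05 (Benjamini-Hochberg over all genes tested) and a change of at least 1.5-fold. For log2 levels the prior count was 2. The biological coefficient of variation was 0.303, above the counting error of each member at its mean count. Ratios were compared by exact two-sided permutation. Scripts were tested on simulated counts.

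Named were the 10 members, Pvalb, up to 3 genes of lowest p (mean of at least 1 CPM) from each of the 5 other matrix lists, and the 5 genes most alike to Acan and to Bcan. One gene that this rule takes is not reported here. Marker genes called were named after their values were seen. The members and lists were chosen with earlier results of these data known. Alternatives were other tests (edgeR likelihood ratio and exact tests, DESeq2, limma voom with sample weights), scalings, filters, blocks, a covariate for reads outside exons, a correction for exon length and each sample left out. Leaving out shNT replicate 2 and shRNA replicate 4 together was added after seeing the data.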

Additional observations from a re-analysis of the deposited data

Results flagged for a closer look

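In groups of 4 or 5 samples, a sample was marked where its gap to the nearest other was large beside the range of its group. Of 52 such groups 7 were marked, and chance alone marks about 2.6. The groups share the same samples and are not independent, so this comparison does not measure an excess over chance. In shRNA replicate 4, Bcan was at 8.63 log2 CPM against 7.17 to 7.31 in the other shRNA samples, and Ncan was at 7.74 against 5.88 to 6.15. The log2 ratio of Tnr to Tnc in that sample was 0.72 against 3.64 to 3.77. Its astrocyte marker level was 2.38 log2 units above the shNT average against 0.35 to 0.68, and its share of alignments at more than 1 place was 8.24% against 10.6% to 10.8%. In shNT replicate 2, Hapln4 was at 8.18 log2 CPM against 8.82 to 8.98 in the other shNT samples, and reads outside exons made up 18.6% against 9.76% to 11.3%. What links these values was not tested.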

How the results depend on the processing

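The number of net genes called (0) depended on the test. The edgeR likelihood ratio test, the edgeR exact test and DESeq2 each called 4, limma voom 3 and no filter on low counts 1, and leaving out shNT replicate 2 with shRNA replicate 4, chosen after seeing the data, gave 2 (Vcan and Ptprz1). With each sample left out in turn it ran from 0 to 2, with Vcan and Ptprz1 called without shNT replicate 1 and without shNT replicate 2, and Ptprz1 without shRNA replicate 2. Over all genes, 1007, 481 and 353 were called as higher in these settings, and 410, 1 and 0 as lower. The exact test called 1659 of all genes as higher and 534 as lower, no filter 501 and 14, and the pair left out 678 and 2. For other matrix genes (1 called), the likelihood ratio and exact tests each called 21, DESeq2 18, limma voom 24, no filter 5, a block for the sets of names 3 and the pair left out 4. Library size only, upper quartile scaling, edgeR's own filter (filterByExpr), the YTa31 samples alone and the covariate for reads outside exons gave 0, as they did over all genes. Leaving out each sample gave 0 to 10, and over all genes 0 to 1007 as higher and 0 to 410 as lower. For the net genes the median log2 fold change (0.63) was 0.31 with limma voom, 0.24 in the YTa31 samples, 0.37 with the covariate, 0.37 corrected for exon length, 0.26 without the pair, and 0.25 to 0.71 with each sample left out, lowest without shRNA replicate 4. It was positive in all 24 alternatives. The log2 ratio of Acan to Pvalb ran from 0.55 to 0.99 with each sample left out, and without shRNA replicate 1 it passed 0.05 (0.99, exact permutation p = 0.0357). Over all genes, 262 higher and 2 lower calls became 0 to 2301 and 0 to 844. The labels do not say whether replicate numbers pair these samples. Same-numbered samples had correlations of -0.27, -0.64, 0.49 and -0.18. Differently numbered samples reached 0.51 (shRNA replicate 2 with shNT replicate 3) and 0.49 (shRNA replicate 4 with shNT replicate 2). These values therefore cannot decide whether samples were paired. With the replicate block, 0 net genes, 0 other matrix genes and 34 genes in all were called. Bcan, Ncan, Vcan, Tnr, Tnc and Ptprz1 were positive in all 24 alternatives, Acan in 4, Hapln1 and Hapln4 in 1 each and Has3 in 16. Has3, with 6 to 35 counts per sample, has the fewest reads of the net genes. The cause of the differences between tests was not tested.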
